A study of Mus musculus with 9 samples.

Results

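The postsynaptic density scaffold and signalling genes described here are 31 genes, chosen by name for their known place at the postsynapse, of 23412 gene symbols measured in mouse hippocampus. All 31 were in the table of expression values, and all 31 passed the filter of 1 TPM or more in 3 or more of the 9 libraries, so that every member was among the 14336 genes tested. TPM, the unit of the deposited values, is the relative abundance of the transcripts of a gene, scaled for their length. The 9 libraries came from wild-type (WT) mice at postnatal day 21, with 3 in each of 3 groups. In the PFOS P1-7 group, dams were gavaged daily with 1 mg/kg of perfluorooctane sulfonate (PFOS), a persistent surfactant, while they nursed their pups on postnatal days 1 to 7. In the PFOS P8-14 group the dams received the same daily dose on days 8 to 14. The Control group is labelled sham. Exposure of the pups was through milk, so the dose each pup took in is not known from the labels, and the study asked which of the time windows is the sensitive one for brain development. The labels give neither sex nor litter and do not say that the libraries are separate animals, so the p-values measure only the spread between these libraries, which may be technical.

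The postsynaptic density is a protein mesh under the membrane of excitatory synapses. MAGUK proteins of the Dlg family hold glutamate receptors at the membrane, Dlgap proteins tie the MAGUKs to Shank, and Shank and Homer form the deeper layer that reaches the actin cytoskeleton and internal calcium stores. Regulators of Ras, Rap, Rac and Arf GTPases sit on this scaffold and shape spine growth and receptor traffic, while gephyrin, encoded by Gphn, is the corresponding scaffold of inhibitory synapses.

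All 13 hippocampal neuron markers were at 1 TPM or more in every library, but so were the 7 neocortex and 7 thalamus markers measured, with summed levels of 97.8 to 141 TPM and 73.7 to 126 TPM. This level therefore does not tell the regions apart. The summed level of the hippocampal markers was 1044 to 1124 TPM in PFOS P1-7, 959 to 1154 TPM in PFOS P8-14 and 905 to 954 TPM in Control libraries. Choroid plexus RNA was uneven across the libraries. Ttr, the transthyretin gene that marks choroid plexus, was at 35.1 to 108 TPM in 4 libraries (PFOS P1-7 replicate 2, PFOS P8-14 replicate 3, Control replicates 1 and 2) and at 9446 to 11626 TPM in the other 5, and the thalamic marker Tcf7l2 was at 3.86 to 7.84 TPM. Summed pan-neuronal markers reached 5593 to 6105 TPM in PFOS P1-7, 5645 to 6269 TPM in PFOS P8-14 and 4972 to 6175 TPM in Control libraries, with Control replicates 2 and 3 the lowest of the 9. Myelin markers summed to 9548 TPM in Control replicate 1, against 12973 to 18558 TPM in the other 8 libraries. In tissue RNA of this kind, fewer cells of a type and less RNA per cell cannot be told apart. TPM keep no sequencing depth, so no counting interval can be given.

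Every member was expressed in every library, and the mean level over the 9 libraries ran from 11.7 TPM for Nos1 to 1190 TPM for Ddn. Ddn encodes dendrin, a protein whose mRNA is carried into dendrites. It was followed by Agap2, which encodes an Arf GTPase-activating protein (717 TPM), and Dlg4, which encodes PSD-95, the main MAGUK of mature excitatory synapses (645 TPM). These are levels per transcript length and can be compared between genes. The members together summed to 5823, 6407 and 5797 TPM in the PFOS P1-7 libraries, 5872, 5177 and 6110 TPM in the PFOS P8-14 libraries and 5792, 4859 and 4371 TPM in the Control libraries (replicates 1, 2 and 3). Control replicate 1 therefore lay among the exposed libraries, and Control replicates 2 and 3 lay below all of them. Gene by gene, Control replicate 1 was above both other controls for 28 of the 31 members and within the range of the 6 exposed libraries for 26. The share of all genes with either order was not taken, so these counts are not read as particular to the members. Control replicates 2 and 3 were both below every other library for 20 members, a pattern singled out after its values were seen and shared by 26.7% of all genes tested. The heat map of deviations shows the same split between controls.

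**Figure D1:**
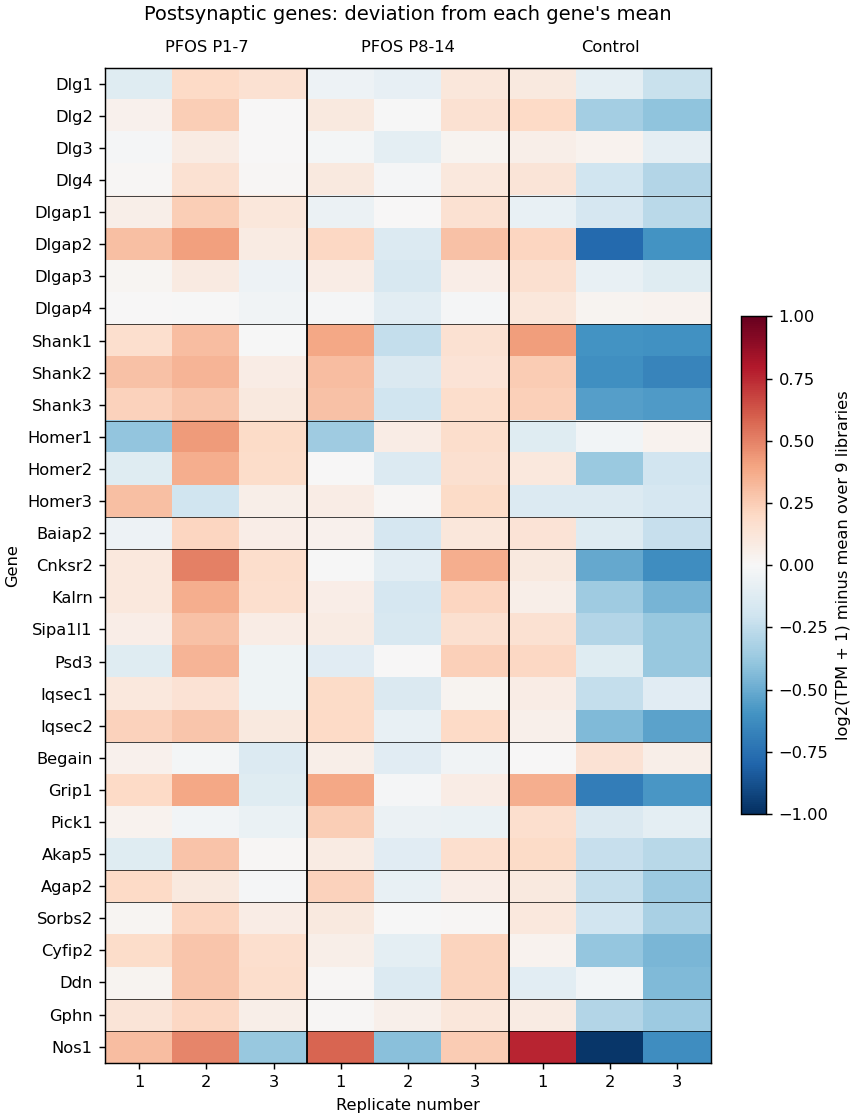
Deviation of log2(TPM + 1) from the mean of the gene over the 9 libraries, for the 31 members (down the page, ordered by role) in each library (across, by group and replicate number). Red is above and blue below the mean of the gene. Control replicates 2 and 3 are blue for most members and darkest among the Shank genes, Dlgap2, Grip1, Cnksr2 and Nos1, while Control replicate 1 resembles the exposed libraries.

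The first comparison asked whether exposure on days 1 to 7 changed these genes at day 21. No member passed an adjusted p of 0.05 in limma, and neither did any other gene (0% of 14336), and the smallest adjusted p of a member was 0.188. By direction, the mean of 29 of the 31 members was above that of Control, against 65.5% of all genes tested, and 26 lay above the median of all genes. Median-of-ratios scaling left 26 members above 0, beside a median of 0.011 for all genes. Removing the trend on transcript length and GC content left 20 above 0, beside a median of 0.013. On TPM as deposited, the median log2 difference of the members was 0.28, beside 0.09 for all genes tested. For PFOS P1-7, the median was 0.25 for the hippocampal neuron markers (11 of 13 above 0) and 0.25 for the oligodendrocyte and myelin markers (10 of 10 above 0). It was 0.0012 for the pan-neuronal markers (5 of 10 above 0). For PFOS P8-14 the medians of these lists were 0.19, 0.13 and 0.09. Choroid plexus, neocortex, astrocyte, endothelial, thalamus and microglia markers had medians of 1.52, 0.12, 0.10, 0.034, 0.027 and -0.085 for PFOS P1-7. For PFOS P8-14 they were 1.49, 0.0022, 0.065, 0.051, 0.15 and -0.050. At an unadjusted p below 0.05, 10 members were higher and 0 were lower, beside 12.5% of all genes higher and 5.79% lower. These 10 were Cyfip2, Dlgap1, Iqsec2, Kalrn, Cnksr2, Gphn, Dlgap2, Ddn, Shank2 and Shank3. In 6 members (Cyfip2, Dlgap1, Iqsec2, Kalrn, Cnksr2 and Ddn) all 3 PFOS P1-7 libraries were above all 3 Control libraries, which 12.3% of all genes also showed. Dlgap4 was the 1 member with all PFOS P1-7 libraries below all Control libraries, a pattern of 6.56% of all genes.

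These counts moved with single libraries. Without Control replicate 1, limma called 16 members at an adjusted p below 0.05, all higher in PFOS P1-7, when 18.6% of all genes tested were also called, and the median difference of the members was 0.39. At an unadjusted p below 0.05 the count was then 22 members, beside 34.1% of all genes in either direction. Without Control replicate 2 it was 6 members (9.42% of all genes), and without Control replicate 3 it was 5 (10.1%). Without PFOS P1-7 replicate 2 it was 6 (12.7%). In these fits that kept Control replicate 1, no member passed the adjusted threshold.

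The second comparison asked the same of days 8 to 14, against the same Control libraries, so the 2 comparisons are not independent. In limma 0 members passed an adjusted p of 0.05 (0% of all genes), and the smallest adjusted p was 0.426. The mean of 28 of the 31 members was above that of Control, against 62.1% of all genes. Median-of-ratios scaling left 26 members above 0, beside a median of 0.0052 for all genes. Removing the length and GC trend left 22 above 0, beside a median of 0.010. On TPM as deposited, the median log2 difference of the members was 0.20, beside 0.06 for all genes. At an unadjusted p below 0.05, 3 members were higher (Iqsec2, Cyfip2 and Dlgap1) and 0 lower, against 6.33% of all genes higher and 4.65% lower. Dlgap1 and Homer3 were higher in every PFOS P8-14 library than in every Control library, as were 7.31% of all genes, and Dlgap4 was lower in every one, as were 5.99%. Without Control replicate 1, 13 members passed the adjusted threshold, with 12.2% of all genes, and 18 were at an unadjusted p below 0.05, with 30.2%. That count of 3 was 0 without Control replicate 2 (4.96% of all genes), Control replicate 3 (5.91%) or PFOS P8-14 replicate 3 (7.42%). It was 1 without PFOS P8-14 replicate 1 (7.06%) and 6 without PFOS P8-14 replicate 2 (9.61%).

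The third comparison set the exposure windows against each other. Between PFOS P8-14 and PFOS P1-7 libraries no member differed in limma at an adjusted p of 0.05 (0% of all genes), and none did at an unadjusted p below 0.05, where 0.467% of all genes were higher and 0.635% lower. The smallest unadjusted p of a member was 0.242 (adjusted 1.00). In PFOS P8-14, 27 of the 31 members had a lower mean log2 level than in PFOS P1-7, with a median difference of -0.07, beside -0.03 for all genes, of which 38.8% were above 0. This rested on single libraries: without PFOS P8-14 replicate 2 the median was 0.00047, with 16 members above 0, and without PFOS P1-7 replicate 2 it was -0.02, with 11 above 0. The groups overlapped for all 31 members, while 1.9% of all genes were higher and 4.15% lower without overlap. The widest 95% confidence interval, that of Nos1, reached 0.97 to either side of its difference on the log2 scale, so differences of about that size were not excluded for this gene. In limma's F test over the 3 groups at once, 7 members had an unadjusted p below 0.05, against 11.3% of all genes, and 0 had an adjusted p below 0.05, the smallest being 0.404. The F-test count was 17 without Control replicate 1, 2 without Control replicate 2, 0 without Control replicate 3 and 4 without PFOS P1-7 replicate 2. For the F test, the share of all genes was taken only with all 9 libraries in the fit.

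**Figure D2:**
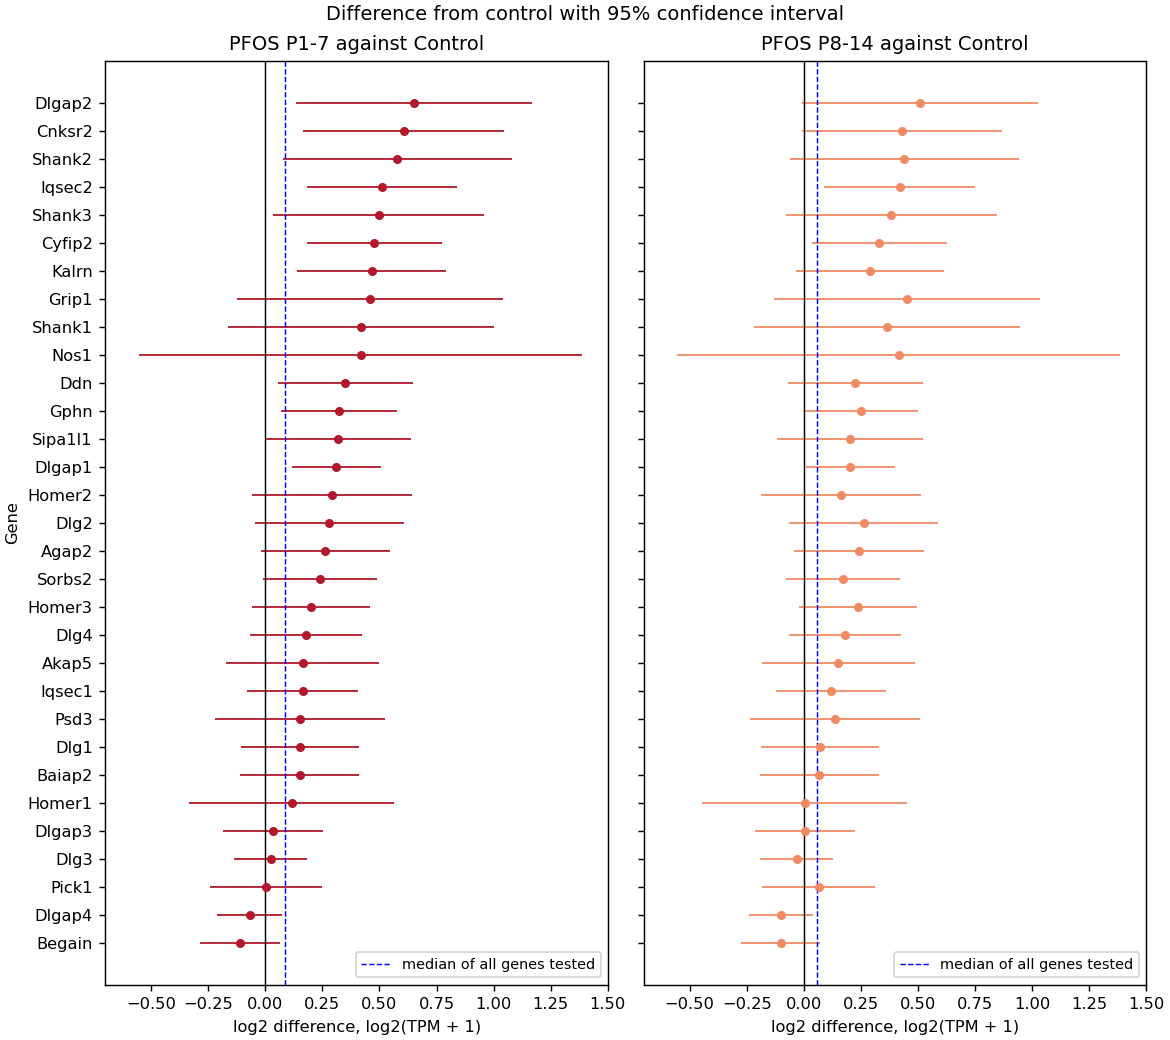
Difference in mean log2(TPM + 1) from Control for each member, with its 95% confidence interval from limma, for PFOS P1-7 (left) and PFOS P8-14 (right). The dashed line is the median of all genes tested (0.09 at left, 0.06 at right). Dlgap2, Cnksr2 and Shank2 have the highest estimates for PFOS P1-7, Begain and Dlgap4 lie below 0 in both panels, and intervals are widest for Nos1, Grip1 and Shank1.

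Cyfip2, Iqsec2 and Dlgap1 were the members with an unadjusted p below 0.05 in both comparisons with Control. One window around an annotated transcription start of each is given here as sequence context, with that of Dlgap4, the member that lay lowest without overlap. Each window runs from 250 bases before to 50 bases after a RefSeq start (GRCm38.p6, the assembly of mm10), 5′ to 3′ on the strand of the gene. Lower case is used throughout, with capitals for matches to the GC box GGGCGG on either strand. The windows lie at chr11:46312309-46312608 (minus strand) for Cyfip2, chrX:152144018-152144317 (plus strand) for Iqsec2, chr17:69968823-69969122 (plus strand) for Dlgap1 and chr2:156720715-156721014 (plus strand) for Dlgap4.
Cyfip2: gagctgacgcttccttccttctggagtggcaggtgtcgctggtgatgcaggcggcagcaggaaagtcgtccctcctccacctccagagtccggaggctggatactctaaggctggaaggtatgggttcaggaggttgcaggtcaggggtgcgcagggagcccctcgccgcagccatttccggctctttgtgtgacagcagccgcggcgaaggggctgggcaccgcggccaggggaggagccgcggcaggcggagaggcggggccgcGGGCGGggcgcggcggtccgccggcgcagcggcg
Iqsec2: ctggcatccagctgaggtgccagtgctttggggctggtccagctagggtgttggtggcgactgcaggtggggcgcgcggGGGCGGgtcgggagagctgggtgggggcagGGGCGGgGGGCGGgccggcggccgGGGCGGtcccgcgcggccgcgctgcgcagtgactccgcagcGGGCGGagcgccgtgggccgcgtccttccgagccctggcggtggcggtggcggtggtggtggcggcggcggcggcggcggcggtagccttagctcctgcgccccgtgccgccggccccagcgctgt
Dlgap1: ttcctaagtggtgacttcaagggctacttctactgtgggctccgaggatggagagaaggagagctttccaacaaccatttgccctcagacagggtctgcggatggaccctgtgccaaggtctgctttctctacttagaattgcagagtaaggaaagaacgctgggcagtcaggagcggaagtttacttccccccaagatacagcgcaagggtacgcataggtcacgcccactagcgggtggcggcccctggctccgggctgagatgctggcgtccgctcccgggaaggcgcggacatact
Dlgap4: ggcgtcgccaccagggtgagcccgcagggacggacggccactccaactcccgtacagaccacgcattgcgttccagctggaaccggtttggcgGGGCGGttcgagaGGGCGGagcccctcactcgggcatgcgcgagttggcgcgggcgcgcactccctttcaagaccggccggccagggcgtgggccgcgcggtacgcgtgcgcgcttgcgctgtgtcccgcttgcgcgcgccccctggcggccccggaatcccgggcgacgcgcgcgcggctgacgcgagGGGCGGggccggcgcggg
The GC box occurred 1 time in the Cyfip2 window, 5 times in that of Iqsec2, 3 times in that of Dlgap4 and not at all in that of Dlgap1. Windows were given for 26 of the 31 members, 50 windows in all. The GC box was present in 27 of these (54%), against 35.7% of all 32851 windows in the same source. The cAMP response element TGACGTCA was in 0 of the 50 (1.79% of all), the E-box CACGTG was in 5 (10%, against 7.15%), and the EGR motif GCGTGGGCG, sought like the others on both strands, was in 1, that of Shank3 (2%, against 0.612%). By gene, the GC box was in windows of 19 of the 26 members and the E-box in those of 3. Windows of the same gene can overlap, as some of Begain do, so a site can be counted more than once. The GC box and the EGR motif can share bases.

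Among the MAGUKs, Dlg4 was at 649, 713 and 649 TPM in PFOS P1-7, 686, 635 and 690.4 TPM in PFOS P8-14 and 704, 559.95 and 523 TPM in Control libraries (replicates 1, 2 and 3). The second highest value of all was thus a Control library and the lowest pair were the other controls. The log2 difference from Control was 0.18 ± 0.11 (SE) for both exposed groups, with adjusted p of 0.386 for PFOS P1-7 and 0.516 for PFOS P8-14 in limma, and -0.030 for PFOS P1-7 once the length and GC trend was removed. Dlg3 encodes SAP102, a MAGUK prominent in young synapses. It was at 129, 138 and 131 TPM in PFOS P1-7, 129, 122 and 133 TPM in PFOS P8-14 and 136, 134 and 122 TPM in Control libraries. Dlg3 had the narrowest span of all members, its highest library being 1.13 times its lowest, and its groups overlapped. Its log2 difference from Control was 0.02 ± 0.071 (SE) for PFOS P1-7, with a 95% interval of -0.14 to 0.18 (-0.059 after median-of-ratios scaling), and -0.03 ± 0.071 for PFOS P8-14, with an interval of -0.19 to 0.13. Dlg2, which encodes PSD-93, averaged 151 ± 13.9 TPM in PFOS P1-7, 149 ± 8.31 TPM in PFOS P8-14 and 126 ± 30.7 TPM in Control libraries (SD, n = 3 each). Dlg1, which encodes SAP97, averaged 44.9 ± 5.38, 42.2 ± 3.20 and 40.3 ± 4.72 TPM in PFOS P1-7, PFOS P8-14 and Control libraries (SD, n = 3 each).

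Within the MAGUK family, Dlg4 made up 67.1 ± 0.325% of the summed TPM of Dlg1 to Dlg4 in PFOS P1-7, 67.8 ± 0.425% in PFOS P8-14 and 66.7 ± 0.522% in Control libraries (SD, n = 3 each). Dlg3 made up 13.3 ± 0.293%, 12.9 ± 0.116% and 14.8 ± 1.58% in the same order of groups. The log2 ratio of Dlg4 to Dlg3, which pairs the MAGUK of mature synapses with that of young ones, was 2.33, 2.37 and 2.31 in PFOS P1-7, 2.42, 2.38 and 2.38 in PFOS P8-14 and 2.38, 2.07 and 2.10 in Control libraries. Every PFOS P8-14 library had a higher ratio than every library of either other group, Control replicate 1 lying just below them. The exact permutation p was 0.1 for PFOS P8-14 against Control and 0.1 for PFOS P8-14 against PFOS P1-7, the smallest that 3 against 3 libraries can give, and 0.4 for PFOS P1-7 against Control. Over all 48 two-sided exact tests of 16 shares and ratios, the smallest Benjamini-Hochberg value was 0.436, so none passed.

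The Dlgap family held both Dlgap1, the 1 member above Control without overlap in each exposed group, and Dlgap4, the 1 member below Control without overlap. Dlgap1 encodes GKAP, which bridges PSD-95 and Shank, and was at 271, 309 and 283 TPM in PFOS P1-7, 249.7, 262 and 289.6 TPM in PFOS P8-14 and 248, 231 and 216 TPM in Control libraries. All 6 exposed libraries were above all 3 controls, although PFOS P8-14 replicate 1 exceeded Control replicate 1 by little. The log2 difference was 0.31 ± 0.087 (SE) for PFOS P1-7 (limma, adjusted p = 0.188) and 0.20 ± 0.087 for PFOS P8-14 (adjusted p = 0.446; -0.0084 once Control replicate 1 was left out and the length and GC trend removed). For PFOS P8-14 against PFOS P1-7 it was -0.11 ± 0.087 (adjusted p = 1.00). Dlgap2, a paralogue of Dlgap1, was at 42.5, 45.8 and 36.4 TPM in PFOS P1-7, 39.8, 31.03 and 42.3 TPM in PFOS P8-14 and 39.9, 19.6 and 22.4 TPM in Control libraries. Control replicate 1 lay inside the exposed range, and the other controls were below every exposed library. Dlgap2 had the largest log2 difference of any member for PFOS P1-7, 0.65 ± 0.23 (SE; limma, adjusted p = 0.220), and for PFOS P8-14, 0.51 ± 0.23 (adjusted p = 0.455).

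Dlgap4 was at 134, 133 and 130.4 TPM in PFOS P1-7, 132, 124 and 133 TPM in PFOS P8-14 and 144, 136 and 137 TPM in Control libraries. Every exposed library was below every control, by a small margin: the log2 difference was -0.07 ± 0.063 (SE) for PFOS P1-7 and -0.10 ± 0.063 for PFOS P8-14, with adjusted p of 0.554 and 0.530 in limma. Dlgap3, the paralogue known in mice for its role in corticostriatal synapses, averaged 202 ± 9.72, 198 ± 18.0 and 198 ± 21.6 TPM in PFOS P1-7, PFOS P8-14 and Control libraries (SD, n = 3 each). As shares of the family, Dlgap1 made up 43.4 ± 1.41%, 42.2 ± 2.36% and 39.0 ± 1.19% in that order of groups, and Dlgap4 made up 20.0 ± 0.874%, 20.5 ± 0.702% and 23.4 ± 1.26%. For PFOS P1-7 against Control the shares of Dlgap1, Dlgap3 and Dlgap4 did not overlap (exact permutation p = 0.1 each, adjusted 0.436), and for PFOS P8-14 that of Dlgap4 did not (exact permutation p = 0.1, adjusted 0.436).

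The 3 Shank genes were higher on average in both exposed groups than in Control under each of the 3 other scalings too (median-of-ratios, quantile, length and GC trend removed), and they showed the split between controls. Shank3, the Shank most studied in mouse models of autism, was at 120.0, 124 and 109 TPM in PFOS P1-7, 125, 88.7 and 116 TPM in PFOS P8-14 and 120.3, 69.4 and 68.4 TPM in Control libraries. Control replicate 1 lay within the exposed range and the other controls were the lowest of the 9. The log2 difference of Shank3 was 0.50 ± 0.21 (SE) for PFOS P1-7 (limma, adjusted p = 0.253) and 0.38 ± 0.21 for PFOS P8-14 (adjusted p = 0.480). Shank1, a paralogue enriched in mature spines, was at 153, 168 and 136 TPM in PFOS P1-7, 178, 115 and 151 TPM in PFOS P8-14 and 182, 89.2 and 89.0 TPM in Control libraries. Its highest and its lowest values were both controls. Its log2 difference was 0.42 ± 0.26 for PFOS P1-7 (limma, adjusted p = 0.392) and 0.36 ± 0.26 for PFOS P8-14 (adjusted p = 0.560). Shank2 averaged 76.5 ± 7.46 TPM in PFOS P1-7, 69.8 ± 11.0 TPM in PFOS P8-14 and 53.1 ± 20.8 TPM in Control libraries (SD, n = 3 each), with a log2 difference of 0.58 for PFOS P1-7 (limma, adjusted p = 0.237).

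Summed over the family, Shank mRNA was at 352, 374 and 313 TPM in PFOS P1-7, 383, 262 and 338 TPM in PFOS P8-14 and 379, 200.3 and 198 TPM in Control libraries, so the groups overlapped. The split between the paralogues was steadier than their level: Shank1 made up 43.9 ± 0.930%, 45.0 ± 1.27% and 45.8 ± 1.83% in PFOS P1-7, PFOS P8-14 and Control libraries, and Shank3 made up 34.0 ± 0.869%, 33.6 ± 0.827% and 33.6 ± 1.66% (SD, n = 3 each). The share of Shank2 was 22.1 ± 0.427%, 21.4 ± 0.720% and 20.5 ± 0.234% in the same order. It was higher in every exposed library than in every control (exact permutation p = 0.1 for each exposed group, adjusted 0.436).

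**Figure D3:**
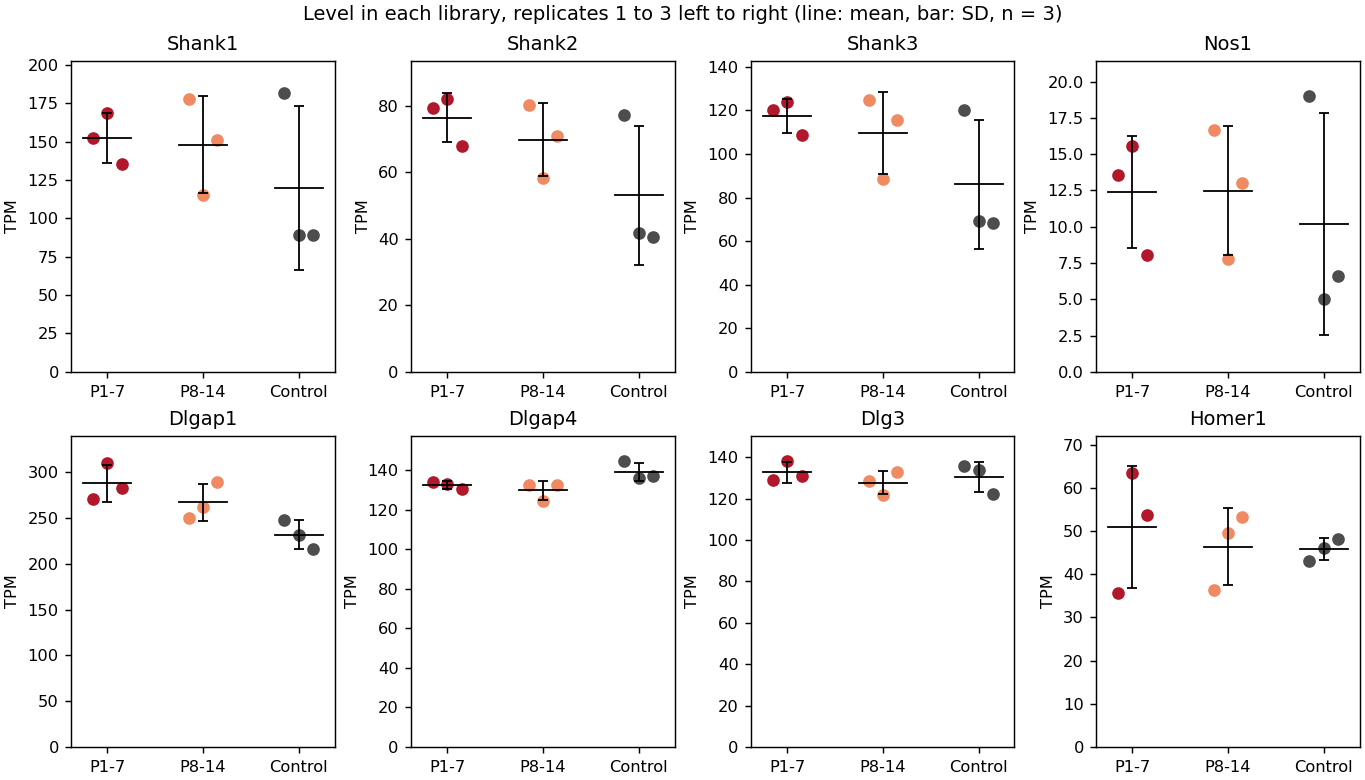
TPM of 8 members in each library (points, replicates 1 to 3 from left to right) for PFOS P1-7, PFOS P8-14 and Control, with the group mean (line) and SD (bar, n = 3). For the Shank genes and Nos1 the Control points are 1 high and 2 low, so their means differ while the groups overlap. The Dlgap1 points separate from Control, Dlgap4 points sit just below the controls, and those of Dlg3 and Homer1 overlap.

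Homer1 was at 35.6, 63.6 and 53.8 TPM in PFOS P1-7, 36.5, 49.7 and 53.2 TPM in PFOS P8-14 and 43.1, 46.1 and 48.1 TPM in Control libraries. This gene yields both the long scaffold forms and the short activity-induced form Homer1a, which gene-level values do not separate. Replicate 1 of each exposed group was below all controls while replicate 3 of each was above them, so the exposed groups straddled the controls. The log2 difference was 0.11 ± 0.20 (SE) for PFOS P1-7, with a 95% interval of -0.33 to 0.56, and 0.0045 ± 0.20 for PFOS P8-14, with an interval of -0.44 to 0.45. Both signs turned once the length and GC trend was removed (-0.055 and -0.083). Homer2, a paralogue that binds the same Shank and metabotropic receptor partners, was at 18.8, 26.7 and 23.5 TPM in PFOS P1-7, 20.6, 18.6 and 23.1 TPM in PFOS P8-14 and 22.1, 15.7 and 17.9 TPM in Control libraries. The 3 groups overlapped, and the log2 difference of PFOS P8-14 from PFOS P1-7 was -0.13 ± 0.16 (SE; limma, adjusted p = 1.00). Homer3, another paralogue, averaged 73.4 ± 12.8 TPM in PFOS P1-7, 74.6 ± 4.69 TPM in PFOS P8-14 and 63.1 ± 0.865 TPM in Control libraries (SD, n = 3 each). Its PFOS P8-14 libraries were all above the controls (limma, log2 difference 0.24 ± 0.12 (SE), adjusted p = 0.462), whereas PFOS P1-7 libraries lay on both sides of them. Homer3 made up 50.1 ± 10.6% of Homer TPM in PFOS P1-7, 52.7 ± 3.06% in PFOS P8-14 and 49.5 ± 1.12% in Control libraries.

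All 4 genes that act on actin and the spine had a higher mean in both exposed groups than in Control, as they did under the same 3 scalings, with a median log2 difference of 0.29 for PFOS P1-7 and 0.20 for PFOS P8-14 (0.18 and 0.12 once the length and GC trend was removed). Cyfip2 encodes a subunit of the WAVE complex, which drives branched actin assembly. It was at 355, 380.1 and 351 TPM in PFOS P1-7, 326, 292 and 365 TPM in PFOS P8-14 and 321, 239 and 227 TPM in Control libraries. The PFOS P1-7 libraries were above all controls, and PFOS P8-14 replicate 2 was below Control replicate 1. The log2 difference was 0.48 ± 0.13 (SE) for PFOS P1-7 (limma, adjusted p = 0.188) and 0.33 ± 0.13 for PFOS P8-14 (adjusted p = 0.437), and that between PFOS P8-14 and PFOS P1-7 was -0.15 ± 0.13 (adjusted p = 1.00). Ddn was at 1199.6, 1424 and 1332 TPM in PFOS P1-7, 1188, 1071 and 1376 TPM in PFOS P8-14 and 1092, 1157 and 868 TPM in Control libraries. Here Control replicate 2 was the highest control, unlike most members, and all PFOS P1-7 libraries were above it. The log2 difference of Ddn was 0.35 ± 0.13 (SE) for PFOS P1-7 (limma, adjusted p = 0.230), 0.22 ± 0.13 for PFOS P8-14 (adjusted p = 0.507) and -0.13 ± 0.13 between PFOS P8-14 and PFOS P1-7. Baiap2, which encodes the membrane-bending actin adaptor IRSp53, differed from Control by 0.15 and 0.07 in PFOS P1-7 and PFOS P8-14 on the log2 scale. Sorbs2, an adaptor that links membrane proteins to actin, differed by 0.24 and 0.17, and the groups of both genes overlapped.

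The 7 regulators of small GTPases and Ras or Rap signalling all had positive differences from Control in both exposed groups, with a median log2 difference of 0.32 for PFOS P1-7 and 0.24 for PFOS P8-14. With the length and GC trend removed, Iqsec1 and Psd3 were below 0 and the other 5 stayed above. Iqsec2, an X-linked exchange factor for Arf GTPases, was at 118, 121 and 107 TPM in PFOS P1-7, 115, 94.97 and 115 TPM in PFOS P8-14 and 104, 73.3 and 68.7 TPM in Control libraries. Every PFOS P1-7 library was above the controls, and among PFOS P8-14 libraries replicate 2 was below Control replicate 1. Its log2 difference was 0.51 ± 0.15 (SE) for PFOS P1-7 (limma, adjusted p = 0.199) and 0.42 ± 0.15 for PFOS P8-14 (adjusted p = 0.426). Kalrn, which encodes the Rac exchange factor kalirin of dendritic spines, was at 218, 260.3 and 228 TPM in PFOS P1-7, 211, 180.1 and 235 TPM in PFOS P8-14 and 211, 158 and 147 TPM in Control libraries. PFOS P1-7 was above Control without overlap, while Control replicate 1 lay within the PFOS P8-14 range. The log2 difference of Kalrn was 0.47 ± 0.15 (SE) for PFOS P1-7 (limma, adjusted p = 0.2099), 0.29 ± 0.15 for PFOS P8-14 (adjusted p = 0.469) and -0.18 ± 0.15 between PFOS P8-14 and PFOS P1-7 (adjusted p = 1.00).

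Cnksr2, an X-linked scaffold of Ras signalling that binds PSD-95, was at 86.0, 114 and 90.4 TPM in PFOS P1-7, 79.8, 74.4 and 103 TPM in PFOS P8-14 and 85.7, 55.7 and 51.8 TPM in Control libraries. PFOS P1-7 replicate 1 exceeded Control replicate 1 by less than 1 TPM, so this separation was narrow. The log2 difference was 0.61 ± 0.20 (SE) for PFOS P1-7 (limma, adjusted p = 0.2099), 0.43 ± 0.20 for PFOS P8-14 (adjusted p = 0.455) and -0.18 ± 0.20 between PFOS P8-14 and PFOS P1-7 (adjusted p = 1.00). The other 4 overlapped between groups. Sipa1l1, a Rap GTPase-activating protein of spines, differed from Control by 0.32 on the log2 scale in PFOS P1-7, and Agap2 by 0.26. Iqsec1 and Psd3, both exchange factors for Arf GTPases, differed by 0.16 and 0.15, and the adjusted p of these 4 in limma ran from 0.275 to 0.615 for PFOS P1-7.

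Of the 5 receptor-anchoring genes and MAGUK partners, 0 were at an unadjusted p below 0.05 in either comparison with Control, beside 12.5% and 6.33% of all genes higher. Without Control replicate 1, 3 of the 5 were (Grip1, Akap5 and Nos1) in both comparisons, beside 34.1% and 30.2% of all genes in either direction. Grip1 was then also at an adjusted p below 0.05 in limma, beside 18.6% and 12.2% of all genes. Nos1 encodes neuronal nitric oxide synthase, which docks on PSD-95 and in hippocampus is strongest in a subset of interneurons. It was at 13.6, 15.5 and 8.06 TPM in PFOS P1-7, 16.6, 7.79 and 13.0 TPM in PFOS P8-14 and 19.0, 4.99 and 6.63 TPM in Control libraries. Its highest library was 3.81 times its lowest, the widest span of all members, and both ends were controls. The log2 difference was 0.42 ± 0.43 (SE) in each exposed group (limma, adjusted p = 0.599 for PFOS P1-7 and 0.680 for PFOS P8-14). Grip1, a PDZ protein that binds AMPA receptor tails, differed from Control by 0.46 in PFOS P1-7 and 0.45 in PFOS P8-14 on the log2 scale, each with an SE of 0.26. Pick1, which binds the same receptor tails and a lipid membrane, differed by 0.0034 and 0.07. Akap5, which anchors protein kinase A and calcineurin, differed by 0.16 and 0.15. Begain, a partner of PSD-95, had negative differences, -0.11 and -0.10 (limma, adjusted p = 0.444 and 0.578), and was highest in Control replicate 2.

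Gphn, the inhibitory scaffold, was at 68.1, 72.3 and 65.1 TPM in PFOS P1-7, 62.9, 64.6 and 67.4 TPM in PFOS P8-14 and 66.1, 50.7 and 48.2 TPM in Control libraries. Control replicate 1 lay within both exposed ranges and the other controls lay below them. The log2 difference was 0.32 ± 0.11 (SE) for PFOS P1-7 (limma, adjusted p = 0.220) and 0.25 ± 0.11 for PFOS P8-14 (adjusted p = 0.455). The log2 ratio of Dlg4 to Gphn, the excitatory over the inhibitory scaffold, was 3.25, 3.30 and 3.32 in PFOS P1-7, 3.45, 3.30 and 3.36 in PFOS P8-14 and 3.41, 3.47 and 3.44 in Control libraries. It was lower in every PFOS P1-7 library than in every control (exact permutation p = 0.1, adjusted 0.436), while PFOS P8-14 overlapped Control (exact permutation p = 0.3).

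Other genes of the postsynapse were taken from a wider list. Of 44 tested partners of excitatory synapses, 14 were higher and 1 was lower in PFOS P1-7 than in Control at an unadjusted p below 0.05, beside 12.5% of all genes higher and 5.79% lower, with a median log2 difference of 0.19, beside 0.09 for all genes. In PFOS P8-14, 5 were higher and 0 lower than in Control, beside 6.33% and 4.65% of all genes, with a median of 0.13, beside 0.06, and none of the 44 passed an adjusted p of 0.05 in limma in any comparison. Nckap1, which encodes a WAVE complex partner of Cyfip2, averaged 456 ± 36.4 TPM in PFOS P1-7, 412 ± 49.1 TPM in PFOS P8-14 and 321 ± 67.7 TPM in Control libraries (SD, n = 3 each). Rapgef4, an exchange factor for Rap, averaged 196 ± 13.9 TPM in PFOS P1-7 and 152 ± 20.5 TPM in Control libraries, and Sipa1l3, a paralogue of Sipa1l1, averaged 69.5 ± 3.52 TPM and 62.4 ± 8.40 TPM in PFOS P1-7 and PFOS P8-14, against 48.8 ± 11.5 TPM in Control. Rapgef2, another Rap exchange factor, averaged 70.9 ± 5.67 TPM in PFOS P8-14 and 58.4 ± 8.45 TPM in Control libraries. Control replicates 1, 2 and 3 were at 399, 285 and 280 TPM for Nckap1 and 61.95, 43.6 and 40.86 TPM for Sipa1l3. For Rapgef2 they were at 68.07, 54.97 and 52.26 TPM, so these genes shared the split between controls. Rapgef4 did not, at 165, 163 and 128 TPM. Between the exposure windows, Arc was the 1 partner at an unadjusted p below 0.05. This activity-induced gene of receptor endocytosis averaged 74.5 ± 9.55 TPM in PFOS P8-14, against 119 ± 30.1 TPM in PFOS P1-7 and 75.9 ± 7.64 TPM in Control libraries (PFOS P8-14 against PFOS P1-7, log2 difference -0.64, limma, adjusted p = 1.00). Prr7, a transmembrane partner of PSD-95, averaged 105 ± 5.93 TPM in PFOS P8-14 and 90.1 ± 16.7 TPM in PFOS P1-7, and Tiam1, a Rac exchange factor, averaged 42.3 ± 5.26 and 48.8 ± 0.380 TPM. Of 6 tested partners of gephyrin, 3 were higher in PFOS P1-7 and 2 in PFOS P8-14 than in Control at an unadjusted p below 0.05. The same 12.5% and 6.33% of all genes stand beside them. Their medians were 0.29 and 0.21, beside 0.09 and 0.06 for all genes. Iqsec3 is in both lists, so the 6 are not separate from the 44.

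The transcripts of the members were on the whole long. Their median longest annotated transcript was 6143 bases, against 3423 bases for all genes tested, with Pick1 (2559), Homer3 (2608) and Begain (3272) below that median. Across genes, the log2 difference of PFOS P1-7 from Control was larger for longer transcripts, with a Spearman rho of 0.46 over 13457 genes and 0.36 over the 31 members, and for PFOS P8-14 the values were 0.40 and 0.29. For PFOS P8-14 against PFOS P1-7 they were -0.24 and -0.28. These are descriptions across genes, which share libraries and are not replicates. Within single libraries, the deviation of all genes from their mean followed length with rho of 0.12, 0.46 and 0.17 in PFOS P1-7, 0.16, -0.19 and 0.30 in PFOS P8-14 and 0.19, -0.40 and -0.50 in Control libraries, so the 2 lowest controls for the members were also the libraries with the most negative relation to length. When the trend on length and GC content was removed from each library, the median of the members was 0.11 for PFOS P1-7, beside 0.01 for all genes, and 0.06 for PFOS P8-14, beside 0.01. Of the 31, 20 then stayed above 0 for PFOS P1-7 and 22 for PFOS P8-14. At an unadjusted p below 0.05, 9 members were higher in PFOS P1-7 and 4 higher with 1 lower in PFOS P8-14. Of all genes, 14.4% and 11.6% were below it in either direction, and no member passed the adjusted threshold. The part of length in these differences beyond that adjustment was not tested. Neither was that of neuronal or choroid plexus RNA beyond the fit with a choroid plexus covariate. In that fit, 17 members for PFOS P1-7 and 11 for PFOS P8-14 had an unadjusted p below 0.05, beside 23.2% and 15.7% of all genes. No member had an adjusted p below 0.05 there.

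**Figure D4:**
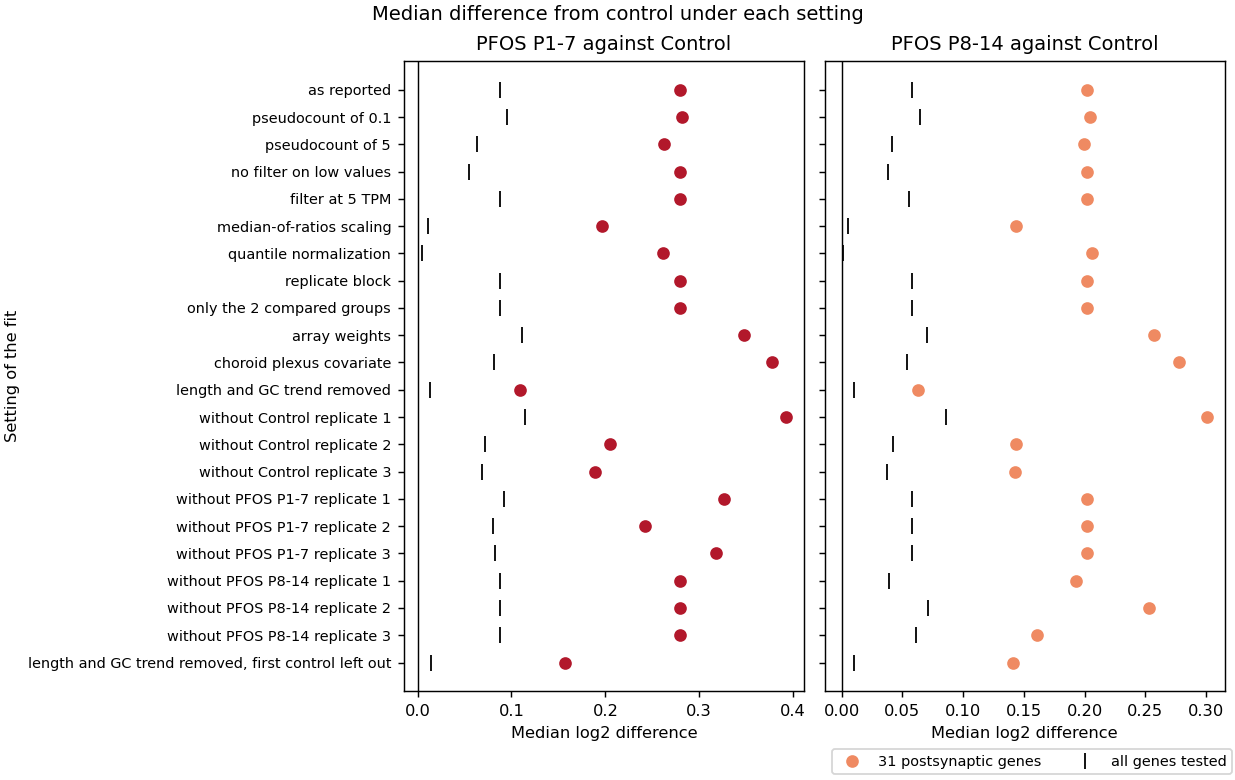
Median log2 difference from Control of the 31 members (points) and of all genes tested (ticks) under each setting of the fit (down the page), for PFOS P1-7 (left) and PFOS P8-14 (right). The members lie above all genes in every setting drawn, with medians for PFOS P1-7 from 0.11 (length and GC trend removed) to 0.39 (without Control replicate 1).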

How the data were processed

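Hippocampal RNA (RNeasy Lipid Tissue Mini Kit) was made into stranded, poly(A)-selected libraries with the TruSeq kit, per the labels' protocols. Reads were processed with fastp 0.21.0, STAR 2.5.3a and RSEM 1.3.3 on build mm10, per the submitters' processing notes; the gene annotation is not given in the sources used here. The authors deposited 1 table of TPM per gene symbol, with 1 column per library. TPM are scaled for transcript length and library total and keep no depth.

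From these, log2(TPM + 1) was tested in limma 3.58.1 (R 4.3.3) for the 14336 genes that reached 1 TPM in 3 or more libraries. One fit over all 9 libraries had a mean-variance trend, and its two-sided p-values were adjusted by Benjamini-Hochberg over the 14336 genes, with a threshold of 0.05. Fold changes of low genes are understated on this scale. The fit was tried on simulated data with independent noise per gene and library. Those data hold no length trend or choroid plexus difference between libraries, so they do not test the fit under these. Shares and ratios used exact permutation tests over libraries and were not repeated with the length and GC trend removed. Promoter windows and gene positions came from RefSeq (GRCm38.p6), and transcript length and GC content from GENCODE M21, matched for 93.9% of tested symbols and all 31 members. Figures used matplotlib 3.10.9. No pair of columns was identical.

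Per-library values are given for the 6 members of smallest p in each comparison and for Dlg4, Dlg3, Shank3, Shank1, Homer1, Dlgap1, Gphn and Nos1; those of Dlgap4 were added after its values were seen. Of the partners, mean levels are given for the 3 of smallest p per comparison. Single Control libraries of Nckap1, Sipa1l3, Rapgef2 and Rapgef4 were added after their values were seen. The members, lists and rules were chosen with earlier results of these data known. Alternatives covered the pseudocount, filter, scaling (quantile normalization, or division of each library by its median ratio to the geometric mean of each gene), replicate block, library weights, a choroid plexus covariate, removal of the length and GC trend, and each library left out.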

Additional observations from a re-analysis of the deposited data

How the results depend on the processing

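The members' median difference from Control kept its sign in all 21 alternatives per comparison. It ran from 0.19 to 0.39 for PFOS P1-7 and from 0.14 to 0.30 for PFOS P8-14 with 1 library left out. Other scalings changed the balance of all genes more: of genes at an unadjusted p below 0.05 for PFOS P1-7, 68.4% were higher on TPM as deposited, 42.3% after median-of-ratios scaling, 44.0% after quantile normalization and 50.7% once the length and GC trend was removed. For PFOS P8-14 these shares were 57.7%, 36.9%, 39.9% and 47.7%. After median-of-ratios scaling 9 members were higher and 2 lower for PFOS P1-7 at an unadjusted p below 0.05, beside 17.1% of all genes in either direction. Of the members 26 were above 0, beside a median of 0.011 for all genes.

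Counts of members depended on the setting, and the cause was not tested. With limma array weights, 17 members for PFOS P1-7 and 6 for PFOS P8-14 had an adjusted p below 0.05, beside 20.3% and 7.35% of all genes. At an unadjusted p below 0.05 there were 23 and 17, beside 37.3% and 29.7% of all genes, and 17 in the F test. With the choroid plexus covariate the unadjusted counts were 17 and 11, beside 23.2% and 15.7% of all genes, and 11 in the F test. With the length and GC trend removed, 5 members had an unadjusted p below 0.05 for PFOS P8-14, beside 11.6% of all genes. Leaving out 1 library gave 0 to 16 members at an adjusted p below 0.05 for PFOS P1-7 and 0 to 13 for PFOS P8-14. The unadjusted counts then ran from 5 to 22 and from 0 to 18, beside 9.42% to 34.1% and 4.96% to 30.2% of all genes. The F-test count ran from 0 to 17, and shares of all genes in the F test were taken for the main fit only. An alternative chosen after seeing the data removed the length and GC trend and left out Control replicate 1. There 9 members for PFOS P1-7 and 6 for PFOS P8-14 passed the adjusted threshold, beside 8.36% and 7.00% of all genes. At an unadjusted p below 0.05 there were 15 and 14, beside 25.8% and 25.4% of all genes, and 14 in the F test. Same-numbered libraries correlated over 0.1 in 5 of 9 pairs (r from -0.47 to 0.53). The 18 differently numbered pairs ran from -0.60 to 0.67. The ranges overlap, so they do not show whether the replicate numbers pair the libraries. A fit with the replicate block gave 5 members at an unadjusted p below 0.05 for PFOS P8-14 and 11 for PFOS P1-7. These stood beside 14.8% and 21.7% of all genes, with 0 members past the adjusted threshold.

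Single genes were followed only for the 6 members of smallest p in each comparison. Against Control, Dlg4, Dlg3, Shank3, Shank1, Homer1, Dlgap1, Gphn and Nos1 were also followed. Among 630 such alternatives, 569 kept direction and call, 42 passed the adjusted threshold and 19 changed sign, in Dlg3, Dlg4, Homer1 and Dlgap1. The 42 arose in settings where 7.00% to 20.3% of all genes passed. Other members also changed sign with the trend removed: Dlg1, Dlgap3, Iqsec1, Psd3, Akap5 and Pick1 for PFOS P1-7. For PFOS P8-14 these were Dlg1, Dlgap3, Homer2, Iqsec1 and Psd3. Dlg3 for PFOS P1-7 was -0.059 after median-of-ratios scaling, -0.13 with the trend removed, -0.18 with Control replicate 1 also left out, and -0.022 to 0.052 with 1 library left out. Dlg3 for PFOS P8-14 was 0.013 with the choroid plexus covariate and -0.077 to 0.0024 with 1 library left out. Homer1 for PFOS P1-7 was -0.055 with the trend removed, -0.11 with Control replicate 1 also left out, and -0.061 to 0.35 with 1 library left out. Homer1 for PFOS P8-14 was -0.053 after median-of-ratios scaling, -0.038 after quantile normalization, -0.083 with the trend removed, -0.14 with Control replicate 1 also left out, and -0.10 to 0.17 with 1 library left out. Dlg4 for PFOS P1-7 was -0.030 with the trend removed. Dlgap1 for PFOS P8-14 was -0.0084 with the trend removed and Control replicate 1 left out. The number of libraries limits precision, with a median 95% interval of 0.30 to either side for the members.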
